A study of Mus musculus with 11 samples.

Results

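The features described here are the pseudogenes of the 2 deposited tables, taken as every row whose name begins with the prefix for pseudogenes. They number 1627 of the 48942 features of the Dcr table and 1541 of the 39889 features of the cMyc table, and all 1541 of the cMyc table are also in the Dcr table. Of those in the Dcr table, 571 carry an OTTMUST identifier, the form used for manually annotated mouse transcripts in the VEGA database, and 1056 carry a PGOMOU identifier, the form used by the pseudogene.org catalogue. The files pair neither kind with a gene symbol, and 0 of the identifiers matched the gene tables used here. No parent gene was therefore known from a name, and no pseudogene was set against its parent.

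Pseudogenes are copies of genes that have lost the ability to make the parent's protein. Processed pseudogenes arise when a messenger RNA is copied into DNA and inserted back into the genome, so they lack introns and often lack a promoter of their own, whereas unprocessed ones arise by duplication. In mammals many processed copies stem from genes that are active in the germline and in early embryonic cells, ribosomal protein genes among them. A read from the parent's messenger RNA can match a young copy as well as the parent itself, so each value below can hold reads of a parent gene or of another near-identical copy. Dicer, which the tables call Dcr, is the ribonuclease that cuts microRNA precursors, and c-Myc is a transcription factor that supports growth and self-renewal of embryonic stem cells.

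The tested cells were mouse embryonic stem cells of strain 129S4/SvJae, grown on gelatin without feeder cells. RNA came from 3 lines of Dcr knockout cells (Dcr KO lines 1, 3 and 4), 2 libraries of Dcr wild-type cells (Dcr WT libraries 1 and 2), 1 library of cMyc knockout cells (cMyc KO) and 1 library of cells with floxed cMyc alleles (cMyc flox). All 7 libraries were poly(A)-selected and directional, with paired-end reads for Dcr and single-end reads for cMyc. How the alleles were deleted, which exons are missing and whether the wild-type libraries came from separate cultures is stated in no source used here.

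Recovered reads ranged from 247574902 to 278006158 in the Dcr KO lines and were 101815723 and 206721717 in Dcr WT libraries 1 and 2, and the cMyc KO and cMyc flox libraries held 31633011 and 24660365. The normalised read count, a read count divided by 1 factor per library, of Dicer1 was 7743 to 9793 in the Dcr KO lines and 18792 to 20132 in the Dcr WT libraries; it covers the whole transcript, so exons outside a deletion also count. Myc was at 10.9 in cMyc KO and 470.0 in cMyc flox. In the Dcr table Myc was also lower in knockout cells, at 443 to 1253 in the Dcr KO lines and 7478 to 10984 in the Dcr WT libraries. All 5 embryonic stem cell markers (Pou5f1, Sox2, Nanog, Zfp42 and Esrrb) were present in every library, with a sum of 691117 to 770062 in the Dcr KO lines and 553971 to 670970 in the Dcr WT libraries. The sum of 5 fibroblast markers (Col1a1, Col1a2, Thy1, Dcn and Acta2) was 1236 to 1726 in the Dcr KO lines and 10608 and 21717 in Dcr WT libraries 1 and 2, with Dcn alone lower in Dcr WT and no marker at 0. The stem cell sums were 35371 in cMyc KO and 30124 in cMyc flox. The fibroblast sums there were 7441 and 4428, with Thy1 alone lower in cMyc KO. The part of these marker differences in the results below was not tested.

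Pseudogenes took a smaller share of the reads in the Dcr KO lines than in the Dcr WT libraries. The share was 3.97%, 3.92% and 3.76% in Dcr KO lines 1, 3 and 4, against 5.48% and 4.74% in Dcr WT libraries 1 and 2. In such bulk samples, fewer cells of a type and less RNA per cell cannot be told apart. The groups did not overlap, with means of 3.88% ± 0.108 in Dcr KO (SD, n = 3) and 5.11% ± 0.521 in Dcr WT (SD, n = 2). The difference, −1.23 percentage points, gave p = 0.1 in a two-sided exact permutation test, the smallest p that the 10 possible splits allow, so no design of this size could pass 0.05. Without Dcr WT library 1 the difference was −0.863 points, and without Dcr WT library 2 it was −1.60 points.

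The lower share was found for both sources of annotation. OTTMUST pseudogenes held 2.36% ± 0.0757 of reads in Dcr KO (SD, n = 3) and 3.23% ± 0.383 in Dcr WT (SD, n = 2). PGOMOU pseudogenes held 1.52% ± 0.0367 in Dcr KO and 1.88% ± 0.138 in Dcr WT, and each source gave p = 0.1 in the same exact permutation test. The 10 pseudogenes with most reads held 20.4% to 21.7% of all pseudogene reads in the Dcr KO lines and 21.4% and 22.0% in the Dcr WT libraries. With these 10 left out the shares were 3.06% in Dcr KO and 4.0% in Dcr WT, a difference of −0.945 points.

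**Figure D1:**
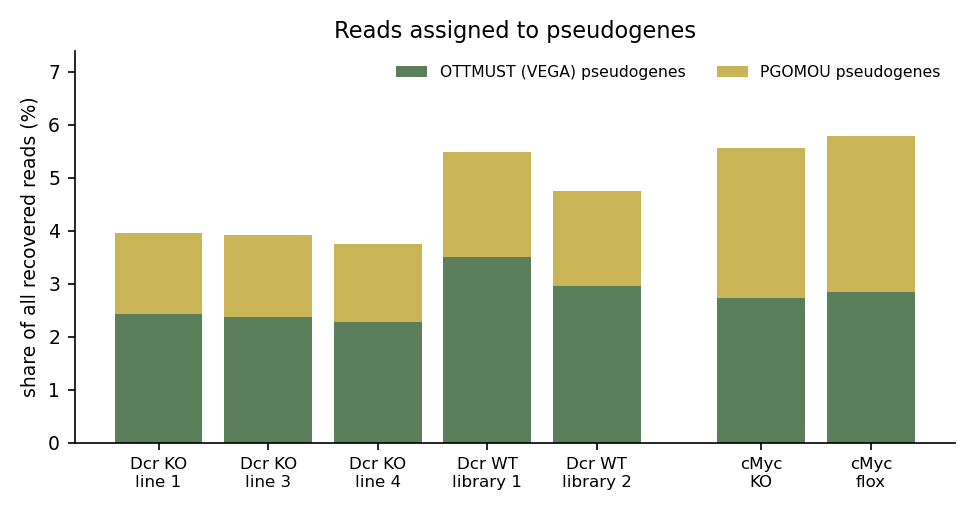
Bars give the percent of all recovered reads of a library that fell in pseudogenes, split into OTTMUST and PGOMOU identifiers, for the 3 Dcr KO lines, the 2 Dcr WT libraries, cMyc KO and cMyc flox. The Dcr KO bars end between 3.76% and 3.97%, below both Dcr WT bars at 5.48% and 4.74%, while cMyc KO (5.57%) and cMyc flox (5.79%) lie close together. Ribosomal RNA took 0% of all reads in the Dcr libraries, 30.0% in cMyc KO and 28.1% in cMyc flox. Dcr and cMyc bars thus lack a like base.

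The sum of the normalised read counts over all pseudogenes averaged 8091844 in Dcr KO and 10088807 in Dcr WT. It was 8711854, 8320012 and 7243667 in Dcr KO lines 1, 3 and 4, against 11225510 and 8952104 in Dcr WT libraries 1 and 2. The difference of the means was −1996963, and it was −860260 without Dcr WT library 1 and −3133665 without Dcr WT library 2. Members with a lower mean in Dcr KO numbered 809 and together fell by 2781627, and 754 members with a higher mean in Dcr KO together gained 784665. The 10 largest losses made up 35.8% of the total loss, and 7 of those 10 passed the test described next. The lower sum thus came with both losses and gains, and losses were the larger in total.

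Each feature was tested in Dcr KO against Dcr WT with limma on log2(value + 1), with p-values adjusted over the 42358 features that reached a value of 1 in 2 or more libraries. Of the 1627 pseudogenes, 1547 met that condition, 80 did not, and 64 of these were at 0 in all 5 libraries. In Dcr KO, 275 pseudogenes (17.8% of those tested) were called higher and 254 (16.4%) lower at an adjusted p under 0.05. The background over all features tested was 16.9% called higher and 14.8% called lower. With limma and all 5 libraries, the shares of pseudogenes called were thus near those of all features. By edgeR on the recovered reads, 265 pseudogenes were higher and 304 lower of 1547, with a background of 15.6% and 15.3%. Both edgeR shares lay above the background, that of lower calls by more. Of OTTMUST pseudogenes 13.5% were higher and 24.9% lower by edgeR, and of PGOMOU pseudogenes 19.1% and 16.7%. By DESeq2 279 were higher and 296 lower of 1547, with a background of 16.7% and 16.2%, and again both shares lay above it. The DESeq2 shares were 15.2% and 24.0% of OTTMUST pseudogenes, and 19.6% and 16.4% of PGOMOU pseudogenes. Leaving out Dcr WT library 1, limma called 345 pseudogenes higher and 258 lower (background 18.0% and 13.8%), and leaving out Dcr WT library 2 it called 313 and 376 (background 19.2% and 14.2%). For mRNAs the shares were 20.5% higher and 22.7% lower. The median log2 fold change was 0.01 for pseudogenes and 0.08 for all features tested. Of the pseudogenes tested, 11 were at 0 in both Dcr WT libraries and 2 were at 0 in all Dcr KO lines, which the filter lets pass only through the other group. Total count scaling gave 230 higher and 298 lower (background 14.8% and 16.4%), and upper quartile scaling 299 and 235 (background 18.5% and 13.7%).

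The sizes of the called changes varied widely. Of the pseudogenes called higher in Dcr KO, 191 (69.5%) had a log2 fold change of at least 1, 96 (34.9%) of at least 2 and 35 (12.7%) of at least 3. Over all features called higher the shares were 72.4%, 43.7% and 21.6%. Of those called lower, 144 (56.7%) fell by at least 1 on the log2 scale, 35 (13.8%) by at least 2 and 9 (3.54%) by at least 3. Over all features called lower the shares were 69.7%, 34.2% and 15.4%, so large changes were less frequent among pseudogene calls than among all calls. A change of at least 1 on the log2 scale was seen in 63.3% of all pseudogene calls and in 71.1% of the 13444 calls over all features. Among mRNAs it was seen in 4026 of 7399 calls, a smaller share than among pseudogenes. The median value of tested features was 513 for pseudogenes, 2737 for mRNAs and 54.1 for all features, and the part of level was not tested. The median size of the change was 1.41 among the higher calls and 1.10 among the lower calls. The 3 Dcr KO values lay above both Dcr WT values for 429 pseudogenes and below both for 412, where the background was 30.0% and 27.4% of all features. All 275 higher calls and 252 of the 254 lower calls were without overlap.

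Near on/off patterns were few. In each Dcr KO line, 3 pseudogenes (0.184%) had at least 10 reads while both Dcr WT libraries had 0, and 0 showed the reverse, where the shares over all 48942 features were 0.509% and 0.0409%. With the bound for the low group raised to under 10 reads per library, 58 pseudogenes (3.57%) had at least 10 reads in every Dcr KO line and fewer in both Dcr WT libraries, and 4 (0.246%) showed the reverse. Over all features the shares were 5.53% and 0.993%, so neither pattern was more frequent among pseudogenes. The bounds are in reads, and Dcr WT library 1 had the fewest reads of the 5 Dcr libraries.

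Of the pseudogenes above the median level, OTTMUST00000017719 had the largest rise. It had 805.6, 1014 and 1017 normalised read counts in Dcr KO lines 1, 3 and 4, against 110.6 and 9.13 in Dcr WT libraries 1 and 2. The Dcr KO lines lay close together and far above both Dcr WT libraries, of which library 1 was the higher. Its log2 fold change was 4.81 (SE 0.77, limma adjusted p = 0.00172), and it was 6.54 without Dcr WT library 1 and 3.08 without Dcr WT library 2. In the cMyc table it held 0 reads in cMyc KO and 2 in cMyc flox, too few for a comparison.

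PGOMOU00000134362 was also higher in Dcr KO. It had 2302, 2815 and 2478 normalised read counts in Dcr KO lines 1, 3 and 4, against 213 and 364 in Dcr WT libraries 1 and 2. All 3 lines were well above both wild-type libraries. The log2 fold change was 3.17 (SE 0.24, limma adjusted p = 4.35e-05). Its cMyc values were close to each other, at 100.6 in cMyc KO and 93.8 in cMyc flox, a ratio of 1.07 with an exact 95% counting interval of 0.804 to 1.43.

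Among the falls, PGOMOU00000254789 had the largest fall above the median level. It had 167.7, 127.6 and 133.9 normalised read counts in Dcr KO lines 1, 3 and 4, against 1420 and 1123 in Dcr WT libraries 1 and 2. The groups were far apart and each was tight. The log2 fold change was −3.14 (SE 0.24, limma adjusted p = 4.35e-05). Its cMyc values were 67.1 in cMyc KO and 54.8 in cMyc flox, a ratio of 1.22 with an interval of 0.847 to 1.78.

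OTTMUST00000011084 was the pseudogene with the 12th highest mean and also one of the 10 largest falls above the median level. It had 35553, 47753 and 51439 normalised read counts in Dcr KO lines 1, 3 and 4, against 355312 and 166615 in Dcr WT libraries 1 and 2. Every Dcr KO line was below both wild-type libraries, which differed from each other by more than the 3 lines did. The log2 fold change was −2.46 (SE 0.29, limma adjusted p = 0.000357), and it was −1.91 without Dcr WT library 1 and −3.00 without Dcr WT library 2. In the cMyc libraries the values were 2090 in cMyc KO and 1866 in cMyc flox, a ratio of 1.12 with an interval of 1.05 to 1.19. Among pseudogenes above the median level, the 10 largest rises in Dcr KO, these included, spanned log2 fold changes of 2.47 to 4.81, and the 10 largest falls spanned −3.14 to −1.87.

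**Figure D2:**
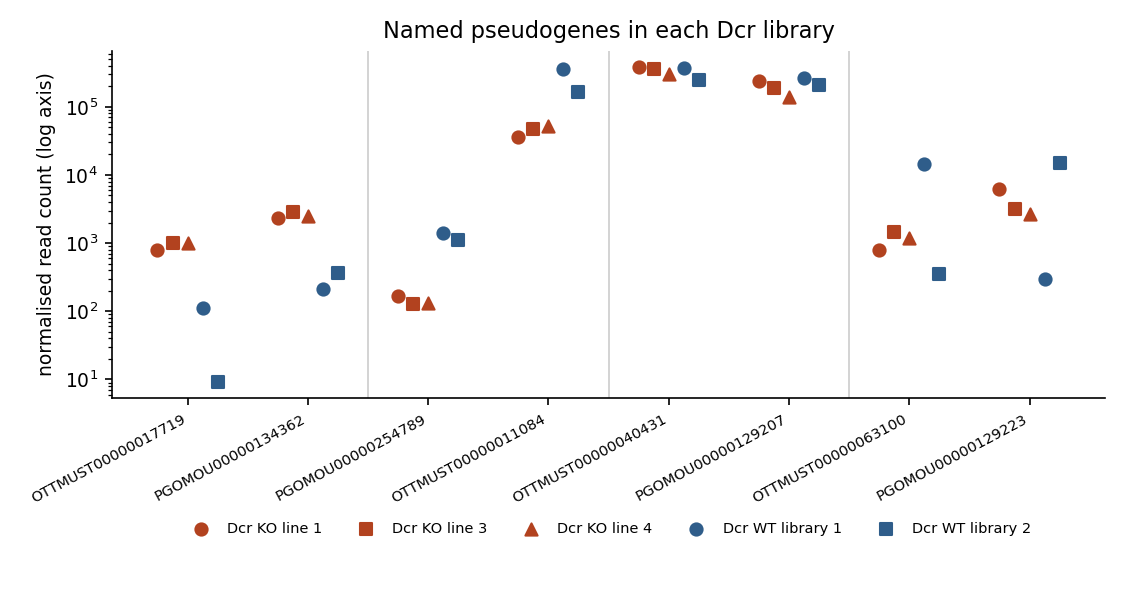
Points give the normalised read count (log axis) of 8 pseudogenes in each of the 3 Dcr KO lines (red) and 2 Dcr WT libraries (blue), with 2 that rose, 2 that fell, 2 with very high counts that were not called and 2 in which the Dcr WT libraries lay far apart. In the last pair one Dcr WT library lies above all 3 Dcr KO lines and the other below them.

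Of the pseudogenes with most reads, several were not called. OTTMUST00000040431, first by mean value, had 389298, 354905 and 303454 normalised read counts in Dcr KO lines 1, 3 and 4, against 367227 and 245192 in Dcr WT libraries 1 and 2. The groups overlapped, and its change, 0.21 on the log2 scale (SE 0.20), did not pass (limma adjusted p = 0.439). PGOMOU00000129207, with the mean value of rank 3, had 238046, 185477 and 140084 in Dcr KO lines 1, 3 and 4, against 266608 and 210894 in Dcr WT libraries 1 and 2. Its groups overlapped as well, and its change, −0.37 on the log2 scale (SE 0.22), did not pass (limma adjusted p = 0.224). Of the 10 with the highest mean, 1 was called higher and 4 lower, with log2 fold changes from −1.33 to 0.80. Normalised read counts are not divided by length, so their order is an order of reads, not of transcript levels.

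The balance of higher and lower calls differed with the level. Among 470 tested pseudogenes with a mean normalised read count under 100, 77 were called higher and 25 lower in Dcr KO, that is 16.4% and 5.32%. Over all 24194 features in that range the shares were 12.5% higher and 8.80% lower, so all features leaned the same way, whereas of 3584 mRNAs 289 were called higher and 620 lower. From 100 to 10000 the calls of pseudogenes were even. Up to 1000, 88 (19.1%) were higher and 89 (19.3%) lower of 460, against 19.4% and 26.1% of all features. Above it, 96 (20.8%) were higher and 94 (20.4%) lower of 461, against 22.7% and 26.0% of all features. All features thus leaned lower in both ranges. At a mean of 10000 or more, 14 pseudogenes (8.97%) were called higher and 46 (29.5%) lower of 156. Over all 4765 features in that range, most of them mRNAs, 27.5% were called higher and 13.7% lower. The mRNAs alone had the same balance as all features, with 1290 (28.4%) called higher and 584 (12.9%) lower of 4543.

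In that top range the median log2 fold change was −0.30 for pseudogenes, 0.13 for mRNAs and 0.12 for all features. Without Dcr WT library 1 the medians were −0.09 for pseudogenes, 0.18 for mRNAs and 0.17 for all features. Without Dcr WT library 2 they were −0.42, 0.08 and 0.06, so each median depended on the library left out. By edgeR with all 5 libraries, 14 of the 156 pseudogenes were called higher and 53 lower. Over all 4765 features in that range the edgeR shares were 28.1% higher and 14.5% lower. The difference between pseudogenes and other features was not tested, since features are not replicates.

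**Figure D3:**
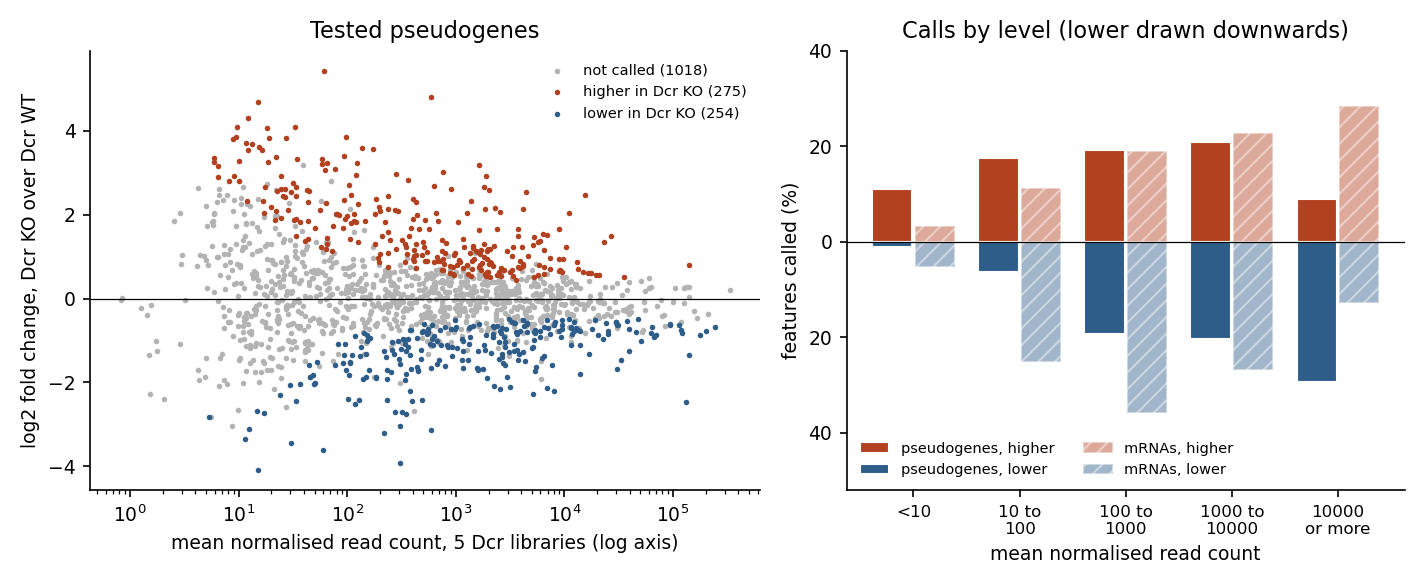
Left, the log2 fold change of each of the 1547 tested pseudogenes in Dcr KO over Dcr WT against its mean normalised read count over 5 libraries (log axis), coloured by the limma call; right, the percent of tested pseudogenes and mRNAs called higher (upwards) and lower (downwards) in 5 ranges of the mean. Pseudogene calls run mostly upwards under 100 (77 higher, 25 lower) and mostly downwards at 10000 or more (14 higher, 46 lower), where mRNA calls run mostly upwards.

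The sources of annotation also differed in balance. Of 554 OTTMUST pseudogenes tested, 81 (14.6%) were called higher and 116 (20.9%) lower in Dcr KO, with a median log2 fold change of −0.16. Of 993 PGOMOU pseudogenes tested, 194 (19.5%) were called higher and 138 (13.9%) lower, with a median of 0.10. OTTMUST pseudogenes had more reads, with a median value of 1099 against 338 for PGOMOU pseudogenes. The background over all features tested was 16.9% higher and 14.8% lower. At a mean of at least 500, 49 (14.6%) of 336 OTTMUST pseudogenes were called higher and 85 (25.3%) lower. Of 442 PGOMOU pseudogenes at that level, 92 (20.8%) were called higher and 81 (18.3%) lower. Over all features at that level the shares were 24.3% higher and 21.8% lower. The median log2 fold change at that level was −0.21 for OTTMUST and 0.00 for PGOMOU pseudogenes. It was −0.06 and 0.10 without Dcr WT library 1, and −0.30 and −0.06 without Dcr WT library 2. The difference between the sources was not tested.

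The wild-type libraries themselves differed more in pseudogenes than in mRNAs. Among 778 pseudogenes with a mean of at least 500, the median absolute log2 difference between Dcr WT libraries 1 and 2 was 0.42, against 0.25 for 11615 mRNAs. Between pairs of Dcr KO lines the median was 0.19 to 0.25 for pseudogenes and 0.12 to 0.19 for mRNAs. A gap of 4-fold or more between the Dcr WT libraries was seen for 39 pseudogenes (5.01%) and 50 mRNAs (0.430%), whereas between any pair of Dcr KO lines it was seen for 0 pseudogenes and 16 mRNAs. Dcr WT library 1 was the higher one for 33 of the 39, and the Dcr KO mean lay nearer to Dcr WT library 2 for 26 of those 33. Of the 33, 3 were called higher and 2 lower in Dcr KO, and of the other 6 none was called by limma.

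A pair of pseudogenes, picked after their values were seen, shows the extremes. OTTMUST00000063100 had 789.6, 1463 and 1201 normalised read counts in Dcr KO lines 1, 3 and 4, against 14422 and 347 in Dcr WT libraries 1 and 2, and its log2 fold change was −1.0 (limma adjusted p = 0.535). PGOMOU00000129223 had 6281, 3122 and 2639 in Dcr KO lines 1, 3 and 4, against 298 and 14868 in Dcr WT libraries 1 and 2, with a log2 fold change of 0.82 (limma adjusted p = 0.638). In each the Dcr KO lines lay between the wild-type libraries, which were 41.6-fold and 49.9-fold apart. Dcr WT library 1 has the lower depth and a different suffix in its column name, which no label explains, and the part of either was not tested.

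Rank correlations between the libraries were taken over a part of the pseudogenes in both tables. Over 892 pseudogenes Spearman's rho was 0.987 to 0.994 between Dcr KO lines, 0.927 to 0.938 between Dcr KO lines and Dcr WT library 2, 0.894 to 0.901 between Dcr KO lines and Dcr WT library 1, and 0.92 between the Dcr WT libraries. Over 11484 mRNAs the wild-type libraries were closer to each other, with rho of 0.978, than to any Dcr KO line, with 0.908 to 0.925. Over pseudogenes, Dcr WT library 2 thus had a rho with each Dcr KO line no lower than its rho with Dcr WT library 1. Between any Dcr and any cMyc library rho was 0.624 to 0.728 over pseudogenes and 0.851 to 0.933 over mRNAs. Over pseudogenes, Dcr WT library 1 was the nearest to the cMyc libraries, with 0.728 for cMyc KO and 0.718 for cMyc flox. Dcr WT library 2 had 0.676 and 0.681, and the Dcr KO lines 0.624 to 0.661 and 0.636 to 0.667. These values describe features of the same libraries, and the Dcr and cMyc tables differ in read layout and were normalised separately.

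**Figure D4:**
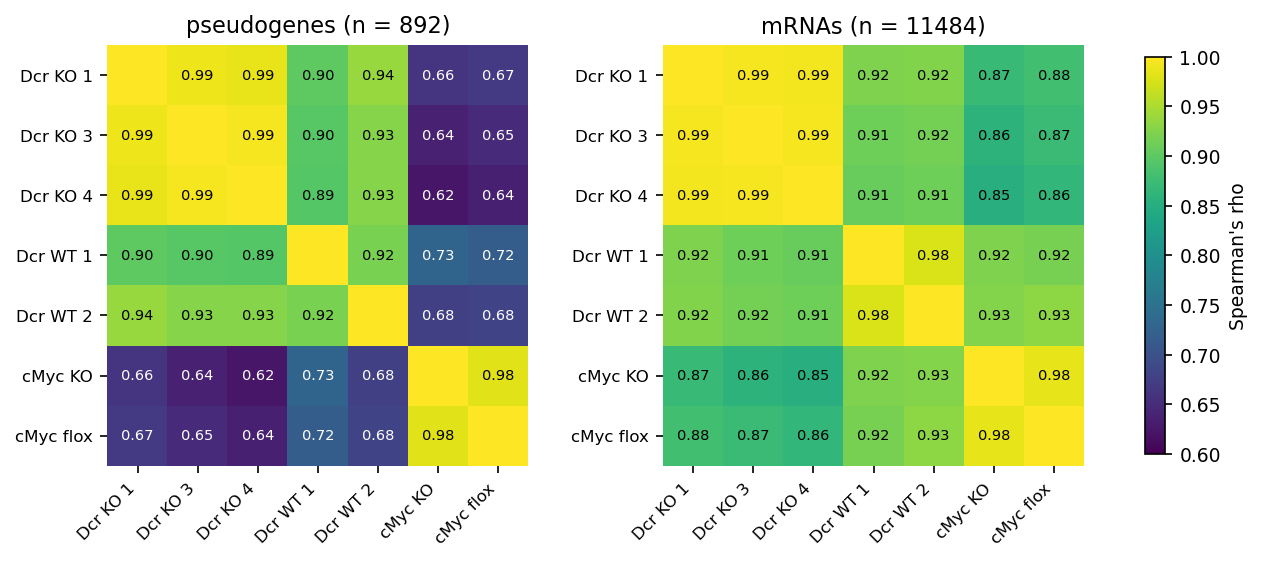
Each cell gives Spearman's rho between 2 libraries over normalised read counts, for 892 pseudogenes (left) and 11484 mRNAs (right), on a colour scale of 0.60 to 1.00. The Dcr to cMyc block is at 0.62 to 0.73 for pseudogenes and at 0.85 to 0.93 for mRNAs, and the cell of the 2 Dcr WT libraries reads 0.92 for pseudogenes and 0.98 for mRNAs.

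A few pseudogenes had many reads in the cMyc table and very few or 0 in the Dcr table. At 100 or more reads in both cMyc libraries and fewer than 10 in every Dcr library stood 7 pseudogenes (0.454% of those in the cMyc table), against 4 mRNAs (0.0231%). OTTMUST00000047181 was the extreme, with 9058 reads in cMyc KO and 5330 in cMyc flox, against 0, 2 and 0 reads in Dcr KO lines 1, 3 and 4 and 0 in both Dcr WT libraries. The other 6 had 148 to 628 reads in cMyc KO and 127 to 481 in cMyc flox. With 10000 or more reads in each Dcr library and fewer than 10 in both cMyc libraries there were 0 pseudogenes and 0 mRNAs.

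Pseudogene values in cMyc KO and cMyc flox lay close together as a group; there was 1 library each and so no test. Their share of reads was 5.57% in cMyc KO (95% Wilson interval 5.56% to 5.57%) and 5.79% in cMyc flox (5.78% to 5.80%), and the intervals cover counting error only. With ribosomal RNA left out, which took 30.0% of reads in cMyc KO and 28.1% in cMyc flox, the shares were 7.95% in cMyc KO and 8.06% in cMyc flox. Ribosomal RNA took 0% of reads in the Dcr libraries, so the Dcr shares stay the same without it. Among 1213 pseudogenes with a mean value of at least 10, 14 (1.15%) were more than 2-fold higher in cMyc KO and 17 (1.40%) more than 2-fold lower. The background over all 17484 features at that level was 1.32% higher and 2.08% lower. The median log2 ratio was 0.01 for pseudogenes, 0.11 for mRNAs and −0.25 for lncRNAs.

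Large ratios came mostly from pseudogenes with few reads. Those past 2-fold had a median value of 48.5 when higher and 15.5 when lower in cMyc KO, against 262 for all 1213. At a mean of at least 50, 6 of 977 were more than 2-fold higher and 2 more than 2-fold lower. The background there was 54 higher (0.405%) and 70 lower (0.524%) of 13347 features. At a mean of at least 500, 2 of 430 pseudogenes were more than 2-fold higher and 0 lower, with log2 ratios from −0.97 to 1.30. The background there was 7 higher and 14 lower of 6802 features. The highest of these pseudogenes had a value of 1420 in cMyc KO and 574.4 in cMyc flox. Its ratio was 2.47, with an exact counting interval of 2.24 to 2.73.

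Pseudogenes were rarely past 2-fold in cMyc KO, whether called in Dcr KO or not. Of the 275 called higher in Dcr KO, 192 had a mean of at least 10 in the cMyc table. Among these, 0 were more than 2-fold higher and 3 more than 2-fold lower in cMyc KO, and the median log2 ratio was −0.14. Of the 254 called lower in Dcr KO, 234 had that level, of which 5 were more than 2-fold higher and 2 more than 2-fold lower in cMyc KO, with a median of 0.09. Among the 780 not called in Dcr KO, 9 were higher and 12 lower, with a median of 0.00. Across 894 pseudogenes with a mean of at least 50 in both tables, the Dcr log2 fold change and the cMyc log2 ratio had a Spearman's rho of −0.26. Across 11551 mRNAs it was −0.15. Both are given as descriptions across features, which are not independent replicates.

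**Figure D5:**
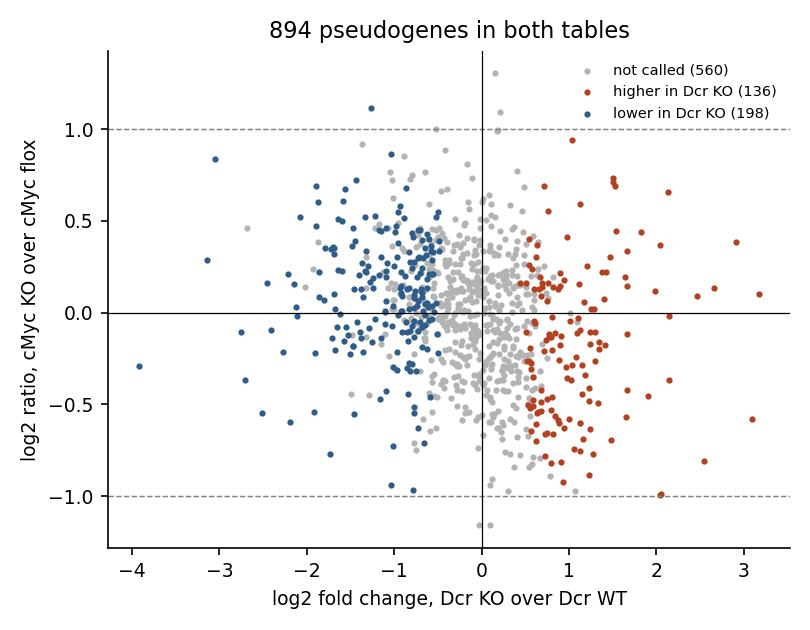
Each point is 1 of 894 pseudogenes with a mean value of at least 50 in both tables. The horizontal axis gives the log2 fold change of Dcr KO over Dcr WT and the vertical axis the log2 ratio of cMyc KO over cMyc flox. Points are coloured by the Dcr call, and dashed lines mark 2-fold. Nearly all points lie within 2-fold on the cMyc axis while the Dcr axis reaches past 3 in either direction.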

How the data were processed

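The authors deposited 1 table for the Dcr and 1 for the cMyc RNA libraries; TopHat, Bowtie, DESeq and the build mm9 are named, without roles, per the submitters' processing notes. How reads were counted, whether strand was used and how reads with several matches were treated are stated in no source used here. The deposited signal is a read count over a size factor of its library: 100% of values were whole multiples of 1 read within 0.01 read. The 4 ChIP samples were not analysed here.

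The test was limma 3.58.1 under R 4.3.3, with moderated variances that follow the mean level, on log2(value + 1). This scale understates changes of low features, and p-values were adjusted after Benjamini and Hochberg over all features tested. They measure only the spread between these libraries, which may be technical. For cMyc, log2 ratios of (value + 1) and exact counting intervals were taken. edgeR 4.0.16 and DESeq2 1.42.0 were run on the recovered reads as alternatives, and the scripts were tested on simulated data. No lengths were used.

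Members and lists were chosen with earlier results of these data known. The rule for named pseudogenes took the 10 with the highest mean, the 10 largest rises and 10 largest falls above the median level, and the extremes of the cMyc ratio. Because the identifiers carry no gene name, at most 2 that rose and 2 that fell are named, and the others are given as ranges. The pseudogenes named for wild-type gaps or for reads in 1 table, the thresholds of those counts, and the level ranges were chosen after values were seen. The planned comparison with parent genes was not made, since no parent was known. Sequences were not used here.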

Additional observations from a re-analysis of the deposited data

How the results depend on the processing

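By limma, the pseudogenes called higher in Dcr KO ranged from 147 to 345 and those called lower from 147 to 376 when each Dcr library was left out in turn, against 275 and 254 with all 5. Fewer samples were fitted there, and a lone Dcr WT library is assumed to vary like the Dcr KO lines. The higher calls numbered 166, 147 and 176 without Dcr KO lines 1, 3 and 4, and the lower calls 147 and 154 without Dcr KO lines 3 and 4. In every one of these fits 129 higher and 124 lower calls were kept, and 0 changed sign. Other pseudocounts, filters and scalings, edgeR and DESeq2 gave 230 to 299 higher and 235 to 304 lower, within 1.5 times of the main counts. Total count scaling gave 230 higher and 298 lower. The log2 fold change of OTTMUST00000040431 was 0.50 (limma adjusted p = 0.0330) without Dcr WT library 1 and −0.080 (limma adjusted p = 0.754) without Dcr WT library 2; the cause was not tested.

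In the cMyc libraries the counts past 2-fold, 14 higher and 17 lower, were 4 and 1 with a pseudocount of 10, 6 and 2 at a mean of at least 50, and 46 and 87 with no filter. They were 6 and 31 with total count scaling, a log2 shift of −0.141, and 10 and 29 with total count scaling without ribosomal RNA, a shift of −0.104. Under total count scaling the median of pseudogenes would thus lie below 0. The share of reads kept its direction in every alternative run, between −1.60 and −0.863 points without 1 library. The ratio of the wild-type gap in pseudogenes to that in mRNAs was 1.69, 1.74 at a mean of at least 50 and 1.94 at a mean of at least 5000. No paired analysis was possible because the Dcr KO and Dcr WT groups share only 1 replicate number and the cMyc groups have 1 library each. The alternatives for pseudogenes against parent genes were not run, since no parent was known. Depth limits the cMyc ratios, from libraries of 31633011 (cMyc KO) and 24660365 (cMyc flox) reads.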
